A study of Mus musculus with 8 samples.

Results

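The DNA replication and nucleotide supply genes form a list of 30 mouse genes that license and fire replication origins, copy DNA at the fork, make deoxynucleotides or package new DNA. The 30 names were chosen with earlier results of these data known. Probe sets were then taken by name alone, as those whose platform gene symbol is, or includes among joined symbols, one of these names. The array held 53 such probe sets, for 28 of the 30 genes, and Chaf1a and Gins2 were not analysed here. All 28 genes passed the filter on low values and were tested among 8535 genes, with 1 probe set per gene, that of highest mean log2 value among those with a single gene symbol. For Tyms this left out a brighter probe set that joins 2 symbols, whose values are given beside it.

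RNA was measured in FL5.12 cells, a mouse pro-B cell line that needs interleukin-3, and in splenic tumors of 3 nude mice that had been given these cells by vein. The parental line stably expressed Bfl-1DC together with p53DD, and the injected cells were of that line, so every group carries both and no array shows FL5.12 cells without them. Bfl-1 is an anti-apoptotic protein of the Bcl-2 family and p53DD is a dominant-negative fragment of p53. Each of 4 RNA sources, namely parental cells and tumors 1, 2 and 3, was hybridised to 2 arrays, 8 in all. The sources used here do not state the age or sex of the mice, whether the line was 1 clone, whether the tumor material passed through culture, or whether the 2 arrays of a source share an extraction. Where arrays share an extraction, the spread between duplicate arrays is technical. Nude mice lack a thymus but keep other blood cells in the spleen. In such bulk RNA, fewer cells of a type and less RNA per cell cannot be told apart.

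As background, an origin is licensed when Cdc6 and Cdt1 load the ring-shaped Mcm2 to Mcm7 helicase onto DNA, and it fires when Cdc45 and the GINS complex join that ring under cyclin E and other kinases. Primase and polymerase alpha lay down primers, replication factor C loads the Pcna clamp, and Fen1 and Lig1 join the lagging-strand pieces. Ribonucleotide reductase, made of Rrm1 and Rrm2, supplies deoxynucleotides. E2F transcription factors turn on many of these genes as a cell enters S phase, and their mRNAs are commonly read as a mark of cycling cells.

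Promoters are shown as a description of the members. Any part of their letters in the differences between arrays was not tested. The RefSeq table of GRCm38.p6 held promoters of 25 of the 30 genes, each of 300 bases, with 250 before and 50 after the start of transcription. The E2F-type letters TTTCCCGC, TTTCGCGC, TTTGCCGC and TTTGGCGC were searched on both strands, so that overlapping hits on opposite strands count separately. They occurred in at least 1 promoter of 10 of the 25 members (40%), against 704 of 27025 genes in the table (2.6%). Counts over genes of the table left out the entries of 1 chromosome. The letters CCAAT, also on both strands, occurred in 15 of 25 members (60%), against 41.1% of genes, and a CCAAT can share an end base with an E2F-type hit. A match is a description of letters, not of a bound site. The promoters of 6 genes are printed 5′ to 3′ along the gene, with E2F-type letters in capitals. Pola1, Mcm3 and Cdc6 are, of the members with such letters, those with the lowest adjusted p between second and first arrays. Rfc3 is the member called for a difference among tumors when array number was a term, and Rrm1 and Rrm2 are the pair whose changes ran in opposite directions. The windows are chrX:93632106-93632405 (minus strand) for Pola1, chr1:20820263-20820562 (minus strand) for Mcm3, chr11:98907901-98908200 (plus strand) for Cdc6, chr5:151651159-151651458 (minus strand) for Rfc3, chr7:102441445-102441744 (plus strand) for Rrm1 and chr12:24708004-24708303 (plus strand) for Rrm2.
Pola1: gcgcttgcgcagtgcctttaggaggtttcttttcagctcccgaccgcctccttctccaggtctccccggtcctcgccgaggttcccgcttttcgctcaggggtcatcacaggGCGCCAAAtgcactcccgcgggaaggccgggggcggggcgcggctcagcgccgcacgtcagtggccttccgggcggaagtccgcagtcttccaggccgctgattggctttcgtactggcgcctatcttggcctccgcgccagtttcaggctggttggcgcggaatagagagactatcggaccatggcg
Mcm3: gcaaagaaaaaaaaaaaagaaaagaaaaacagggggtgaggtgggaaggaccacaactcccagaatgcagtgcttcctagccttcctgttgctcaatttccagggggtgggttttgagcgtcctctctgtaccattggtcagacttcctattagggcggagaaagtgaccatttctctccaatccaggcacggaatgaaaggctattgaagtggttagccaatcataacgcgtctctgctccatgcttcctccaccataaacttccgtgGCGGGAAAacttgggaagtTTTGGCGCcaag
Cdc6: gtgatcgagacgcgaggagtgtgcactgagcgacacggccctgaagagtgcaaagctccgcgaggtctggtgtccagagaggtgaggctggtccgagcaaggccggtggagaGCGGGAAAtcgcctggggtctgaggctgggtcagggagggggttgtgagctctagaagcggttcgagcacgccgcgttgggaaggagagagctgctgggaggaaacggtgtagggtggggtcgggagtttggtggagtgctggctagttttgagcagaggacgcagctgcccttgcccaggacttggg
Rfc3: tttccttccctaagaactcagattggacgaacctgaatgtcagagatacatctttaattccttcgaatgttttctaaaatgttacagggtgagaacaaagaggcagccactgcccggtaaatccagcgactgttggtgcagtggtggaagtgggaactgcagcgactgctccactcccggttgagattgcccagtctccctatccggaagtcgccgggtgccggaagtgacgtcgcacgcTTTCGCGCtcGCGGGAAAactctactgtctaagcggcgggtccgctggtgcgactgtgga
Rrm1: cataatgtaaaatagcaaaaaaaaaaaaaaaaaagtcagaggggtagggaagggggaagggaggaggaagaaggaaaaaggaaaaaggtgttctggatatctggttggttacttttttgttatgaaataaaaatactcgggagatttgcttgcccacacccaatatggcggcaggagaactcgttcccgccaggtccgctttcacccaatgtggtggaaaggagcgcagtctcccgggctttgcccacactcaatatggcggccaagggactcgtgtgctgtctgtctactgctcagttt
Rrm2: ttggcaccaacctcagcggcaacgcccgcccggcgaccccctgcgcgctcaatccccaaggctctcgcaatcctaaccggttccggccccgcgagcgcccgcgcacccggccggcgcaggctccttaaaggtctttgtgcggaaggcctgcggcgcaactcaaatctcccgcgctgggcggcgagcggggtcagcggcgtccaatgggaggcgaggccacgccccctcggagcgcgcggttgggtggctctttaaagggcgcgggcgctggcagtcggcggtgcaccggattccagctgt
The Rrm1 and Rrm2 windows held none of the 4 E2F-type words, which says only that those letters are not in these windows. The Mcm3, Pola1, Cdc6 and Rfc3 windows each held at least 1.

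The deposited values are MAS5 signals, whose trimmed mean is 150.06 on each array. The median signal ran from 32.4 to 37.9 over the 8 arrays and the ratio of 3′ to 5′ signal from 1.06 to 1.25 for actin and from 0.708 to 0.798 for Gapdh. Of 13 pro-B markers 11 were on the array, and Cd79a and Cd79b alone lay above the 40th percentile of signal on both parental arrays, while Pax5, Ebf1, Vpreb1, Igll1, Rag1, Rag2, Dntt, Blnk and Il7r did not. The pro-B sum was 227 and 230 on the parental arrays and 456 to 627 on the tumor arrays, with 1 of 3 tested genes called higher. Markers of other cells moved with the groups too. The summed signal of 12 neutrophil markers was 837 and 328 on the parental arrays and 4175 to 10587 on the tumor arrays. Of 11 tested genes 2 were called higher, and all 11 had changes above 0. Mpo, Prtn3 and Ngp had the highest signals of these markers on every tumor array, and Prtn3 made up 725 and 162 of the parental sums. Ctsg in tumor 3 (28.2 and 26.7) did not exceed its parental 28.5 and 72.4, and Camp was at most 2.8 on every array. The summed signal of 4 eosinophil markers was 37.4 and 33.0 against 3634 to 8218, with 2 of 4 called higher. Of the 6 T cell markers measured the sum was 65.3 and 54.0 against 849 to 2565, carried by Cd3g and Cd3d, while Cd3e, Cd4, Cd8a and Cd8b1 had signals of at most 27.6 on every array. The erythroid sum was 281 and 231 in tumor 1, against 1011 and 657 in parental cells and 826 to 1228 in the other tumors, and most of it was Klf1. The sum of 11 macrophage and monocyte markers was 189 and 899 on the parental arrays and 318 to 2708 on those of tumors, and 6 of the 7 tested were higher on second arrays. The part of these cells in the results below was not tested.

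No member passed the test of tumors against parental cells. Duplicate arrays of a tumor were averaged first, so that 3 tumors stood against 2 parental arrays in a comparison by limma's moderated statistic on log2(signal + 16) and Benjamini-Hochberg adjustment over all 8535 genes. It called 0 of 28 members, while 66 of all genes tested were called (0.773%). The 2 parental arrays are duplicates of 1 RNA source, so the parental spread, and each SD with n = 2, describes that source alone. Any difference by array number is part of that spread, while the tumor means average over it. At an unadjusted p under 0.05 there were 5 members (17.9%, against 16.4% of all genes), of which Gins1, Pole, Fen1 and Tyms had lower values in tumors and Rrm2 higher ones. By direction alone, 26 of 28 changes lay below 0, against 47.1% of all genes, and the median was -0.37 against 0.02 over all genes. The value lay below both parental arrays in all 3 tumors for 8 members (28.6%): Cdc45, Gins1, Pole, Prim1, Fen1, Lig1, Rrm1 and Tyms. Of all genes 15.7% did so. Rrm2 alone lay above both parental arrays in all 3 tumors (3.57% of members, against 20% of all genes), and in the other 19 members the 3 tumors were not all on one side of the parental arrays. The median moved to -0.067 without the first parental array and to -0.70 without the second.

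**Figure D1:**
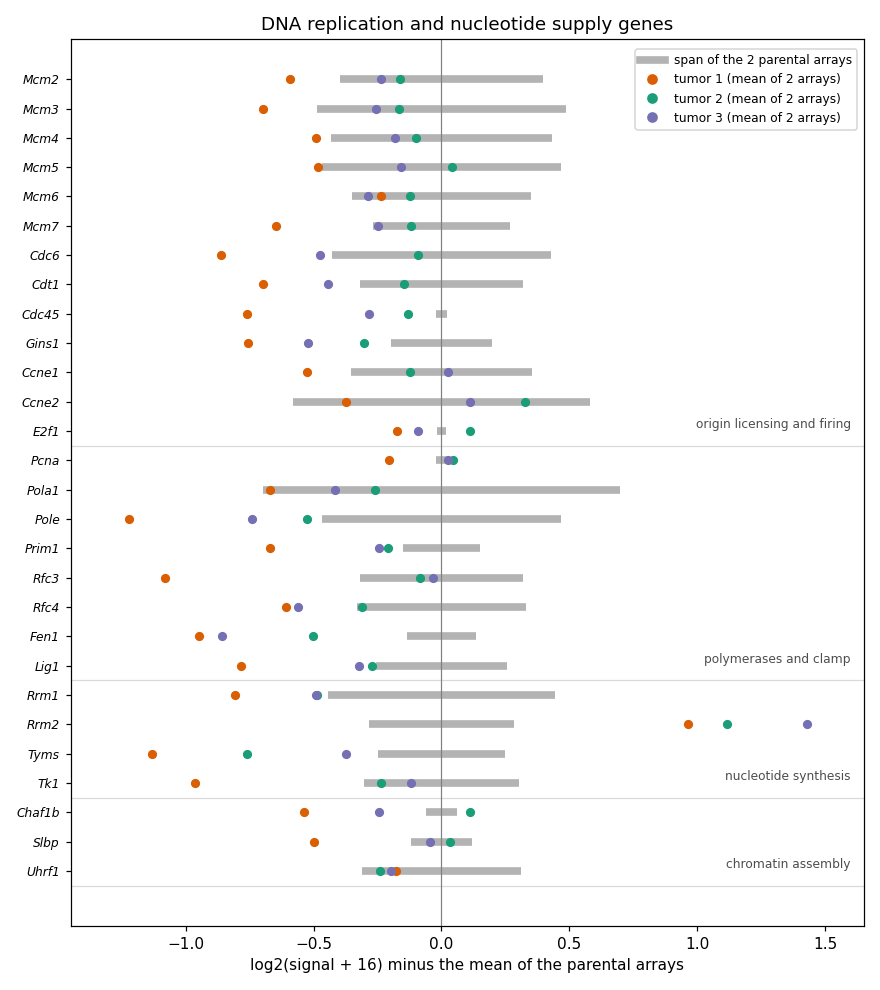
Each line is 1 of 28 genes, and points give tumor 1, tumor 2 and tumor 3 (mean of 2 arrays each) as the difference in log2(signal + 16) from the mean of the parental arrays, whose span is the grey bar. Tumor 1 is the lowest of the 3 tumors for 26 of 28 genes, and the share of all genes lowest there is not given here. Rrm2 is the only gene with all 3 tumors to the right of the bar (20% of all genes). For 8 genes all 3 tumors are to its left (15.7% of all genes).

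Origin licensing and firing genes had changes from -0.53 to 0.02, with a median of -0.33 over 13 genes, and 12 lay below 0. Each of the 6 helicase genes, Mcm2 to Mcm7, had a tumor mean within the span of the parental arrays in at least 1 tumor. Mcm3 (probe set 1420028_s_at) read 1331 and 671 on the first and second parental arrays, 814 and 409 for tumor 1, 1127 and 627 for tumor 2, and 896 and 696 for tumor 3. In every source the second array was the lower one, and the parental arrays lay further apart than the means of tumors and parental cells (1001 ± 467 parental, SD, n = 2, and 762 ± 136 tumors, SD, n = 3). Its change was -0.37 ± 0.32 (SE, adjusted p = 0.596). The changes of Mcm2, Mcm4, Mcm5, Mcm6 and Mcm7 ran from -0.34 (Mcm7) to -0.20 (Mcm5), with adjusted p from 0.529 to 0.788. Mcm3 had 4 other probe sets: 3 of them gave -0.50 to -0.57, and one with signals of 26.3 to 49.6 gave 0.11.

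The loading factors showed the same spread. Cdc6 (1417019_a_at) read 379 and 202 in parental cells, 218 and 95.4 for tumor 1, 329 and 203 for tumor 2, and 208 and 184 for tumor 3. Only the tumor 1 mean and, by a small margin, the tumor 3 mean lay under the lower parental array. The change was -0.48 ± 0.32 (SE, adjusted p = 0.509). Cdt1 had a change of -0.43 ± 0.26 (0.452). Cdc45, which travels with the helicase, differed little between its parental arrays: the signals were 197 and 191 there, 103 and 113 for tumor 1, 181 and 170 for tumor 2, and 126 and 193 for tumor 3. All 3 tumor means were below both parental arrays, with tumor 1 furthest and the second array of tumor 3 at the parental level. The change was -0.39 ± 0.22 (adjusted p = 0.425). Gins1, a GINS subunit, read 219 and 163 in parental cells and 84.1 to 181 on the 6 tumor arrays, of which only the first array of tumor 2 exceeded the lower parental array. Its change was -0.53 ± 0.21 (adjusted p = 0.282).

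Ccne2 and E2f1 had the changes nearest to 0 in this group. Ccne2, a cyclin E, read 767 and 334 on the parental arrays, 551 and 272 for tumor 1, 877 and 467 for tumor 2, and 682 and 441 for tumor 3, a set of values that overlaps throughout. The change was 0.02 ± 0.37 (adjusted p = 0.985) and the other cyclin E, Ccne1, had -0.21 ± 0.27 (0.743). E2f1, the transcription factor, had signals of 44.2 to 70.1 on all 8 arrays and a change of -0.05 ± 0.16 (0.907). The sign of both Ccne2 and E2f1 turned in other settings, given in the closing section.

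At the fork, all 8 polymerase and clamp genes had changes below 0, from -0.83 to -0.04 around a median of -0.45. Fen1, the flap nuclease of the lagging strand (1436454_x_at), read 976 and 807 in parental cells, 468 and 438 for tumor 1, 622 and 622 for tumor 2, and 435 and 534 for tumor 3. Every tumor array was below both parental arrays. Mean signals were 892 ± 120 (SD, n = 2) in parental cells and 520 ± 90.1 (SD, n = 3) in tumors, 1.71-fold lower on the log2(signal + 16) scale. The change of -0.77 ± 0.20 missed the threshold (SE, adjusted p = 0.146), and the other Fen1 probe set, tested among 14893 probe sets of which 0.698% were called, gave -0.89 (0.122).

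Pole, the catalytic subunit of the leading-strand polymerase, had the lowest change of the set. Its parental arrays read 297 and 148, and the tumors 98.9 and 66.0, 168 and 119, and 126 and 113. The first parental array stood far above the other 7, and the second lay within the range of the tumor arrays. The change was -0.83 ± 0.33 (SE, adjusted p = 0.282), or 1.78-fold lower. Pola1, the catalytic subunit of polymerase alpha, read 372 and 131 in parental cells, 242 and 71.3 for tumor 1, 272 and 123 for tumor 2, and 230 and 114 for tumor 3. First and second arrays did not overlap, whatever their source. Its change of -0.45 ± 0.39 (adjusted p = 0.608) was smaller than the difference of -1.39 between the parental arrays.

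Clamp and ligation genes differed from each other. Pcna, the sliding clamp, had 3524 and 3626 in parental cells, 3011 and 3185 for tumor 1, 3486 and 3902 for tumor 2, and 3126 and 4242 for tumor 3. Those values overlapped, and the change was -0.04 ± 0.16 (adjusted p = 0.92). Rfc3, a clamp loader subunit (1432538_a_at), read 566 and 359 in parental cells, 236 and 178 for tumor 1, 444 and 405 for tumor 2, and 418 and 464 for tumor 3. Tumor 1 alone was below both parental arrays. The change over the 3 tumors was -0.40 ± 0.37 (0.63). Rfc4, another subunit of the loader, had -0.49 ± 0.23 (0.357), Prim1, the primase, had -0.37 ± 0.21 (0.423) and Lig1, the ligase, had -0.46 ± 0.24 (0.394).

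Nucleotide synthesis held the member that ran against the rest. Rrm2, the small subunit of ribonucleotide reductase (1434437_x_at), read 1220 and 819 in parental cells, 2173 and 1776 for tumor 1, 2413 and 1986 for tumor 2, and 2408 and 3071 for tumor 3. All 6 tumor arrays were above both parental arrays. The means were 1020 ± 283 (SD, n = 2) and 2304 ± 393 (SD, n = 3), a 2.25-fold difference on the log2(signal + 16) scale. The change of 1.17 ± 0.24 missed the threshold (SE, adjusted p = 0.0945). Its other 2 probe sets gave 1.26 and 1.27, and tested singly the 3 probe sets had adjusted p of 0.0854 to 0.109.

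Rrm1, the large subunit that pairs with Rrm2 in the enzyme, went the other way. It read 1594 and 853 in parental cells, 906 and 480 for tumor 1, 1016 and 675 for tumor 2, and 832 and 821 for tumor 3. Each tumor mean was below both parental arrays, although 2 single tumor arrays exceeded the second parental array. The change was -0.60 ± 0.28 (SE, adjusted p = 0.355). Taken within each array and centred on the parental mean, log2 Rrm2 minus log2 Rrm1 was -0.16 and 0.16 on the parental arrays, 1.47 and 2.07 for tumor 1, 1.45 and 1.75 for tumor 2, and 1.73 and 2.10 for tumor 3. No tumor array overlapped a parental one. The difference in means was 1.76, with an SD of 0.16 over 3 tumors and 0.23 over the parental arrays, and it ran from 1.76 to 1.93 over the 6 pairings of their probe sets. This pairing of genes was chosen after their values were seen, so it carries no test, and it shows unequal change of the 2 genes without saying which of them moved.

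Tyms, thymidylate synthase (1438690_at), read 112 and 75.2 in parental cells, 44.4 and 24.5 for tumor 1, 65.9 and 33.9 for tumor 2, and 78.0 and 58.4 for tumor 3. Only the first array of tumor 3 was above a parental array. The change was -0.75 ± 0.27 (SE, adjusted p = 0.245). A probe set that joins Tyms with the pseudogene symbol Tyms-ps read 503 and 511 in parental cells and 367 to 532 in tumors, for a change of -0.29 (adjusted p = 0.426 among single probe sets), so the probe sets disagree in size. Tk1, the thymidine kinase of the salvage route, had -0.44 ± 0.31 (0.525), with 181 to 507 on the tumor arrays against 592 and 384.

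**Figure D2:**
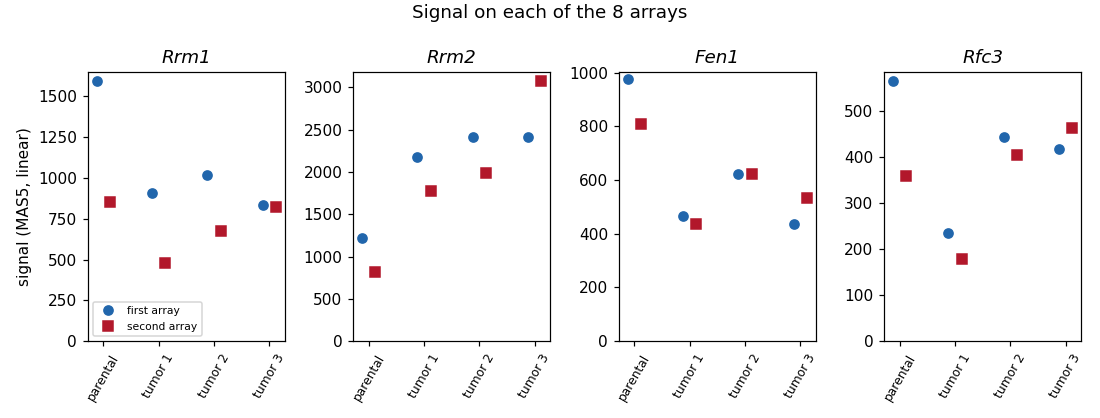
Signals (MAS5, linear axes from 0) of Rrm1, Rrm2, Fen1 and Rfc3 on each of the 8 arrays, with circles for first arrays and squares for second arrays of a source. Rrm2 is higher on all 6 tumor arrays than on both parental arrays, Fen1 is lower on all 6, and Rfc3 is lowest in tumor 1, at 236 and 178.

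Chromatin genes had the median nearest to 0, -0.20 over 3 genes, and none lay below both parental arrays in all tumors. Slbp, which binds the stem-loop of histone mRNA, read 1419 and 1198 in parental cells and 894 to 1396 on the tumor arrays, and its change was -0.17 ± 0.21 (SE, adjusted p = 0.733). Chaf1b, a subunit of the CAF-1 histone chaperone, had -0.22 ± 0.22 (0.653). Uhrf1, which recruits the maintenance DNA methyltransferase to new DNA, had -0.20 ± 0.21 (0.678).

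By the median of the members, the 2 parental arrays differed more than tumors and parental cells did. Second minus first parental array, the gap, had a median of -0.63 over the members and -0.01 over all genes. Below 0 were 27 of 28 gaps, against 50.9% of all genes. With 1 array on each side this is a description. The second array was lower by at least 1.5-fold for 16 members (57.1%, against 7.63% of all genes) and higher by as much for 0 (against 8.73%). For 19 of 28 members (67.9%) the gap was larger in size than the change in tumors. The share of all genes is not given here. A gap sets 1 array against 1, while the change is between means of arrays, so this count cannot be read as particular to the members. The widest gaps were -1.39 for Pola1, -1.16 for Ccne2 and -0.97 for Mcm3, and the exceptions were Pcna at 0.04, E2f1 at -0.04 and Cdc45 at -0.04. By group the median gap was -0.71 for origin licensing and firing, -0.57 for polymerases and clamp, -0.59 for nucleotide synthesis and -0.24 for chromatin assembly.

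**Figure D3:**
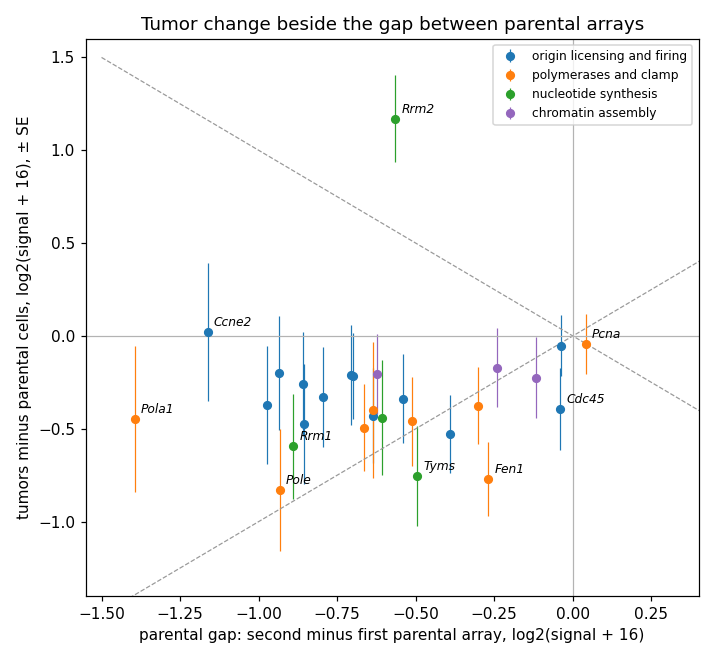
Change of tumors against parental cells (vertical axis, ± SE) beside the gap between the parental arrays (horizontal axis), both in log2(signal + 16), for 28 genes coloured by group. Dashed lines mark changes equal in size to the gap, and 19 of the 28 genes have a gap larger than their change, with Rrm2 at 1.17 and Fen1 at -0.77 among the exceptions. The share of all genes with a gap larger than their change is not given here.

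The same lean between array numbers was present in tumors 1 and 2 and was small in tumor 3. The labels number the arrays 1 and 2 in each source. The median of second minus first over members was -0.56 in tumor 1, -0.44 in tumor 2 and -0.06 in tumor 3. In the same order 25, 26 and 17 of 28 members were below 0, against 49.5%, 48.7% and 49.1% of all genes. In a limma fit of all 8 arrays with source and array number as terms, 11 members (39.3%) passed as lower on second arrays, against 7.86% of all genes, and 0 as higher, against 7.86%. These were Pola1, Ccne2, Mcm3, Mcm4, Tyms, Cdc6, Mcm6, Mcm2, Lig1, Rfc4 and Rrm1. The joined probe set of Tyms ran the other way, at 0.12 (adjusted p = 0.462 among single probe sets). Pola1 had the widest mean difference, -1.23 ± 0.13 (SE, adjusted p = 0.0105), followed by Ccne2 at -0.91 ± 0.12 (0.0115) and Mcm3 at -0.78 ± 0.13 (0.0156). Lower values on the second array in all 4 sources were found for 16 members (57.1%, against 20.9% of all genes). The count of 11 fell to 2 without the parental cells, to 1 without tumor 1 and to 0 without tumor 2, and was 11 without tumor 3. The share of all genes called in these fits of fewer arrays is not given here. The fall therefore cannot be read as particular to the members.

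What marks a second array is not stated in the sources used here. In 4 bins of mean signal the members' median of second minus first ran from -0.46 to -0.34, while that of all genes ran from -0.04 to 0.03. Second arrays had a 99th percentile of signal of 3115 to 3465 against 2852 to 3140 on first arrays. The ratio of 3′ to 5′ actin signal was lower on the second array of each source, at 1.23 and 1.19 in parental cells, 1.25 and 1.14 for tumor 1, 1.24 and 1.11 for tumor 2, and 1.18 and 1.06 for tumor 3. That of Gapdh was lower on the second array in parental cells (0.769 and 0.708) and tumor 2 (0.798 and 0.759). In tumor 1 (0.744 and 0.763) and tumor 3 (0.749 and 0.759) the Gapdh ratio was higher on the second array. The summed macrophage signal was higher on the second array of each source, at 899 against 189 in parental cells, where Csf1r (11.5 and 555) and Adgre1 (96.9 and 237) made up most of the difference and Lyz2, Fcgr1, C1qa, C1qc and Itgam were not higher. Summed signal of the 28 members was 25122 and 17328 in parental cells, 18073 and 13478 for tumor 1, 22940 and 18232 for tumor 2, and 19148 and 20213 for tumor 3. The part of these differences in the lower member signals was not tested.

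**Figure D4:**
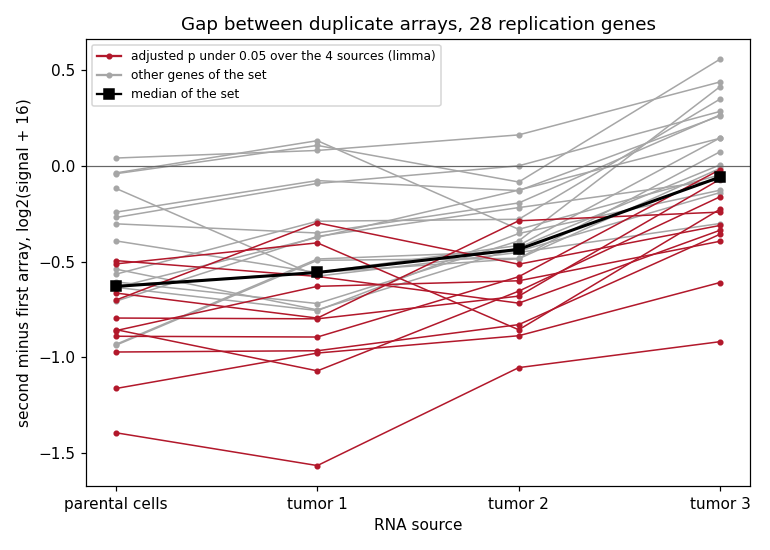
Second minus first array in log2(signal + 16) for each of 28 genes, by RNA source, with lines joining 1 gene and black squares for the median of the set. The median is -0.63 in parental cells, -0.56 in tumor 1, -0.44 in tumor 2 and -0.06 in tumor 3, and red lines are the 11 genes that passed as lower on second arrays.

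Within array numbers the members still leaned low. Among first arrays alone the median difference of tumors from the parental array was -0.49, with 27 of 28 below 0, against 48.4% of all genes. Among second arrays it was -0.26, with 23 of 28 below 0, against 47.4% of all genes. In 10 members (35.7%) every tumor array was below the parental array of its own number, against 15.3% of all genes.

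Taken 1 at a time against the parental cells, tumors 1, 2 and 3 had member medians of -0.66, -0.14 and -0.25. Members below 0 numbered 27, 21 and 24 of 28, against 48.3%, 45.2% and 48.3% of all genes. Tumor 1 was the lowest of the 3 in 26 members, and the share of all genes lowest there is not given here. In a limma fit of the 8 arrays that gives every source its own mean, Fen1 fell in tumor 1 (-0.95, adjusted p = 0.0383), the only member called lower there (3.57%, against 1.37% of all genes). Rrm2 rose in tumor 3 (1.43, adjusted p = 0.0296), the only member called higher there (against 2% of all genes), and had 0.96 (0.088) in tumor 1 and 1.12 (0.0978) in tumor 2. In tumor 2, 0 members were called, against 1.53% of all genes called in either direction, and 3 had an unadjusted p under 0.05 (10.7%, against 13.5% of all genes). With a pseudocount of 1, tumors 1 and 3 had 0 member calls, and the share of all genes at that setting is not given here. The spread in this fit is that between duplicate arrays, so these calls speak of these RNA sources and not of tumors in general.

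Same-numbered arrays deviated together, so the numbers pair the arrays, and the fit with array number as a term changed these calls. In tumor 1, 10 members were then called lower (35.7%, against 6.99% of all genes) and Rrm2 higher (3.57%, against 8.1%). The 10 were Mcm3 (adjusted p = 0.0479), Cdc6 (0.0423), Cdt1 (0.0465), Cdc45 (0.0378) and Gins1 (0.0307) of licensing and firing, Pole (0.0104), Rfc3 (0.0164), Fen1 (0.014) and Lig1 (0.0309) of the fork, and Tyms (0.00476). Their differences ran from -1.22 (Pole) to -0.70 (Mcm3). In tumor 2 the fit called Rrm2 as higher (0.0319) and Tyms as lower (-0.76, 0.0319), against 6.22% of all genes in either direction. In tumor 3 it called Rrm2 as higher (0.0107) and Fen1 as lower (-0.86, 0.0233), against 10.6%. On its joined probe set Tyms was called in neither tumor 1 (-0.41, 0.13) nor tumor 2 (-0.33, 0.27). Rrm2 passed as higher in each of the 3 tumors in this fit. The spread is again that between duplicate arrays, and the 3 comparisons share 1 parental source. These calls too speak of these RNA sources and not of tumors in general. Tumor 1 had 11 member calls in all, and 5 without tumor 2, when Rrm2 was not among them. With a pseudocount of 1 in place of 16 there were 4 calls, and with 64 there were 20. No share of all genes is given here for the other pseudocounts or without tumor 2. Over tumors as a group, array number as a term with source as a random block called 0 members (Rrm2 adjusted p = 0.103), and the random block without array number called Rrm2 (0.0411). That last fit put the correlation of duplicate arrays at 0.0288, so it counts them almost as separate replicates. Its call is therefore not one over independent samples, and its share of all genes is not given here.

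Rfc3 was the one member called for a difference among tumors, and only with array number as a term. Its difference from parental cells was -1.08 in tumor 1, -0.09 in tumor 2 and -0.03 in tumor 3. The limma F test over the tumors called 0 members, against 1.62% of all genes, with 3 members at an unadjusted p under 0.05 (10.7%, against 12.6% of all genes), and Rfc3 had an adjusted p of 0.146. With array number as a term it called Rfc3 alone (adjusted p = 0.0374), against 6.46% of all genes. The other Rfc3 probe set had -0.93, -0.23 and -0.07 in the same order, with an adjusted p of 0.0909 in that fit. A call of 1 in 28 is below the share of all genes.

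Replication genes outside the list were read from 5 further lists. Of the 15 tested genes of other licensing and firing factors 12 lay below 0 (median -0.22), of 20 other fork genes 17 (median -0.43), of 16 other nucleotide supply genes 9 (median -0.05), of 9 other chromatin assembly genes 7 (median -0.16), and of 22 E2F and Rb control genes 13 (median -0.11). Of all genes 47.1% lay below 0. The test of tumors against parental cells called 0 genes of each list in either direction, against 0.773% of all genes. At an unadjusted p under 0.05 in limma the lists held 2, 4, 1, 2 and 4 genes, against 16.4% of all genes. Those counts are not read as particular to the lists. Pola2, the partner subunit of Pola1, had -1.03 ± 0.23 (SE, adjusted p = 0.116) and read 313 and 196 in parental cells against 72.2 to 133 on the 6 tumor arrays, with no overlap. Rfc2, a clamp loader subunit, had -0.92 ± 0.30 (0.216) and went against the members between array numbers, with 1011 and 1668 on the first and second parental arrays.

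The remaining named genes were, like Pola2 and Rfc2, the 2 of each list with the lowest p, so they do not stand for their lists. The highest changes were 0.50 among other licensing and firing factors and 0.16 among other fork genes. They were 0.34 for other nucleotide supply, 0.30 for other chromatin assembly and 0.37 for E2F and Rb control. Orc5, of the origin recognition complex, had -0.49 (adjusted p = 0.202) and Wdhd1, which ties polymerase alpha to the helicase, -0.76 (0.229). Dut, which removes dUTP, had -0.49 (0.216) and Paics, of purine synthesis, -0.44 (0.322). Hells, a chromatin remodeller, had -0.96 (0.194) and Asf1a, a histone chaperone, -0.40 (0.271). E2f6, a repressor of the E2F family, had -0.65 (0.209) and Cdk4, a kinase of the Rb route, -0.46 (0.253). Of 6 proliferation genes outside the list, Mki67 and Top2a among them, 5 lay below 0, with a median of -0.20 and 0 called.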

How the data were processed

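The authors deposited MAS5 signal intensities per probe set, per the submitters' processing notes; its version is not given in the sources used here. Every array's trimmed mean, with 2% left out at each end, was 150.06. Arrays scaled in this way can be compared only if most of their signal does not differ.

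Gene symbols were those of the platform annotation, brought to RefSeq GRCm38.p6 names by gene ID. Of 22690 probe sets, 20380 had 1 symbol, 691 several, 1555 none, 64 were controls, and 20364 matched by gene ID. Tests used log2(signal + 16), which understates changes of low genes. Probe sets had to exceed their array's 40th percentile on at least 2 of 8 arrays. Of the 53 member probe sets 49 did, and 4 did not (1 of Cdt1, 2 of Tyms, 1 of Slbp). Each gene took its single-symbol probe set with the highest mean log2 value. Comparisons used limma 3.58.1 in R 4.3.3, two-sided, with Benjamini-Hochberg adjustment at 0.05 over all genes. Scripts were tested on simulated data. Arrays have no read depth, and their number limits the precision.

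The labels number arrays 1 and 2 in each source. Gaps between duplicates correlated at 0.4 to 0.595 across genes in the 6 pairs of sources, and array numbers were therefore taken as pairing. Alternatives were other pseudocounts, filters, normalizations, probe set rules, array subsets, blocks and leaving out samples in turn. The rule for named genes took all members, and from each further list the 2 genes with the lowest p. Members and lists were chosen with earlier results of these data known.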

Additional observations from a re-analysis of the deposited data

Results flagged for a closer look

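Rfc3, a subunit of the clamp loader, was flagged because it passed a test for a difference among the 3 tumors. Its difference from parental cells was -1.08 in tumor 1, -0.09 in tumor 2 and -0.03 in tumor 3 on the log2(signal + 16) scale. The limma F test over tumors with array number as a term gave an adjusted p of 0.0374, and the same test without that term gave 0.146. The second Rfc3 probe set gave 0.0909 with the term. Rfc3 was the only member called in that fit (3.57% of members), below the 6.46% of all genes.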

How the results depend on the processing

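Without parental replicate 1 or 2 and without each tumor, the members' median change ranged from -0.70 to -0.067 (main value -0.37), the highest without parental replicate 1 and the lowest without parental replicate 2. Tumors against parental cells called 0 members, and 1 (Rrm2, 0.0411) with source as a random block and no array number. That 1 call came from a fit that counts duplicate arrays almost as separate replicates (correlation 0.0288), and its share of all genes is not given here. The second-against-first count of 11 was 5 with a pseudocount of 1, 5 with no filter and 22 of 49 for all probe sets tested singly, and 0 to 11 when a source was left out. With a pseudocount of 1, tumors 1 and 3 had 0 calls each instead of 1. Tumor 3 had 2 calls with a pseudocount of 64, 0 with no filter, 2 with median centring and 3 for single probe sets. With the replicate block, which the pairing of arrays calls for, calls were 11 in tumor 1, 2 in tumor 2 (0 without it), 2 in tumor 3 and 1 in the F test (0 without it). That tumor 1 count, in alternatives chosen after seeing the data, was 4 with a pseudocount of 1, 20 with 64, 4 with no filter, 20 with a filter at the 60th percentile, 20 for single probe sets, and 5 to 16 without tumor 2 or tumor 3. Shares of all genes for the other pseudocounts, filters and left-out sources are not given here, so those counts describe the members only. The cause of these differences was not tested.

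Changes that turned sign, none of them called, were those of Uhrf1 (0.11), Mcm5 (0.27), Mcm6 (0.14), Ccne1 (0.15), Pola1 (0.25), Mcm3 (0.11), Mcm4 (0.17) and Mcm2 (0.068) without parental replicate 1. Ccne2 was -0.13 without tumor 2, -0.023 without tumor 3, -0.56 without parental replicate 2, -0.086 with median centring, -0.15 on arrays of number 1 and -0.39 on second arrays of tumors. Pcna was 0.036 and E2f1 0.0095 without tumor 1, and E2f1 was 0.071 for the mean of its probe sets. Pcna was 0.069 on second arrays of tumors and 0.048 on arrays of number 2, where Mcm5 was 0.12 and Ccne1 0.035. On first arrays of tumors Pola1 was 0.14 and Mcm4 0.013. Over left-out samples the lowest values were -0.52 (Uhrf1), -0.67 (Mcm5), -0.56 (Mcm6), -0.56 (Ccne1), -1.15 (Pola1), -0.86 (Mcm3), -0.69 (Mcm4), -0.73 (Mcm2), -0.13 (E2f1) and -0.090 (Pcna), and the highest for Ccne2 was 0.60. Other member changes kept their direction in every setting run, and Rrm2 ranged from 0.89 to 1.45 with adjusted p of 0.0411 to 0.398 over 18 settings.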

Other observations

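Other replication genes showed the gap between array numbers too. In the limma fit with source and array number as terms, second arrays were lower for Cdc7, the kinase that fires origins (-0.72 on the log2(signal + 16) scale), Topbp1 (-0.71), Mcm10 (-0.61), Orc1 (-0.53) and Wdhd1 (-0.53), which are 5 of the 15 other licensing and firing genes tested. Of the 20 other fork genes 6 were lower, Pold1, the catalytic subunit of polymerase delta, by the most (-0.99), and Pold4, its small subunit, was higher (0.50). Of 16 other nucleotide supply genes 7 were lower, among them Cad (-0.76) and Ctps (-0.70) of pyrimidine synthesis and Gart (-0.64) and Paics (-0.51) of purine synthesis. Hells (-0.75) and Dnmt1 (-0.59) were lower among 9 chromatin genes, and Cdc25a (-1.06), Ccnd2 (-0.81) and Rbl2 (-0.66) among 22 E2F and Rb control genes. Of all genes, 7.86% were lower on second arrays and 7.86% higher. Apart from Wdhd1, Hells and Paics, the genes of this paragraph were named after their values were seen.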
